A study of Mus musculus with 2 samples.

Results

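The miR-200 family of the mouse consists of 5 microRNA loci, Mir429, Mir200b, Mir200a, Mir200c and Mir141, which lie in a pair of clusters on different chromosomes. The members were the rows of the deposited count tables whose Ensembl identifiers belong to these names in the GENCODE M21 annotation. All 5 had a row, out of 1973 rows in all, and all 5 passed the filter of at least 10 counts summed over the libraries. The study sequenced small RNA, taken from total RNA, of the forebrain at postnatal day 0 in the mouse strain B6NCrl. It has 1 library from pup 3 and 1 from pup 1, each made from 1 forebrain. The labels give a size limit of under 30 without a unit, the same donor entry for both pups and no sex. No allele, agent or treatment is named and no condition was compared, so the comparisons are between members, clusters and seeds, and between the library of pup 3 and that of pup 1. A test on the reads of 2 libraries compares these libraries and not conditions.

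A microRNA silences messenger RNAs that pair with its seed, the bases 2 to 8 from its 5′ end, so members with the same seed share most of their predicted targets. The miR-200 family is best known as a keeper of the epithelial state, since its members repress the transcription factors Zeb1 and Zeb2, which switch off epithelial genes such as the cadherin gene Cdh1. Zeb1 and Zeb2 in turn bind E-boxes at the miR-200 clusters and repress them, which makes a loop of mutual repression. In the mouse brain the family is known from the olfactory system, where it takes part in the making of olfactory neurons, and its cluster of Mir200b is also needed in the pituitary.

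The mature sequences are shown because the comparison of seeds rests on them. They are the 3p arms of the 5 hairpins, from RefSeq on GRCm38.p6, written 5′ to 3′ with the seed in capitals. The first 3 share the seed AAUACUG.
miR-429-3p: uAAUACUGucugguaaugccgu
miR-200b-3p: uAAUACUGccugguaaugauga
miR-200c-3p: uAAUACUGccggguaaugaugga
The last 2 share the seed AACACUG.
miR-200a-3p: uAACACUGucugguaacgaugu
miR-141-3p: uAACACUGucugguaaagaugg

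The seeds differ by a single substitution, U4C between miR-200b-3p and miR-200a-3p, with positions counted from 1 at the 5′ end. The same U4C separates each of the 3 arms of the first group from each of the 2 of the second. No other of the 1738 mature mouse sequences in the RefSeq table carries either seed. Within the seed AACACUG, miR-200a-3p and miR-141-3p differed at C17A and U22G. Within the seed AAUACUG, miR-200b-3p and miR-200c-3p differed at U11G and A22G, and miR-429-3p and miR-200b-3p at U9C, C19A, C20U and U22A. Over the first 22 bases, the 10 pairs of arms were identical at 17 to 20 positions. The closest pairs, Mir200b with Mir200c and Mir200a with Mir141, thus join the clusters, and each holds a single seed.

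Reads with more than 1 mapping position were left out of the counts of loci, so the sequences shared between hairpins bear on every level given here. The longest run that a member's hairpin shared with another was 17 bases, between Mir200a and Mir141, and the longest shared with a hairpin outside the family was 13 bases, between Mir429 and Mir218-1. None of the 10 mature arms had an exact copy elsewhere among 141767 annotated transcripts, apart from the transcripts Gm13648 and Gm29008, which overlap Mir429 and Mir141 at their own places. The genome outside annotated transcripts was not searched. Such reads were 44.1% of all reads in pup 3 and 42.2% in pup 1.

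The first cluster lies on the minus strand of chromosome 4 (GRCm38) and runs from Mir200b through Mir200a to Mir429 over 1846 bp. Mir200b (ENSMUSG00000065549.2) was annotated at 156055681 to 156055750, Mir200a (ENSMUSG00000065400.1) at 156054896 to 156054985 and Mir429 (ENSMUSG00000065427.1) at 156053905 to 156053987. All 3 lie in an intron of 2 of the 8 transcripts of Ttll10, a gene of the tubulin tyrosine ligase-like family, and within the noncoding transcript Gm13648, where Mir200b and Mir200a are intronic and Mir429 lies in an exon. The second cluster lies on the minus strand of chromosome 6 and spans 477 bp. Mir200c (ENSMUSG00000065462.2) was annotated at 124718322 to 124718390 and Mir141 (ENSMUSG00000065474.1) at 124717914 to 124717985, both in an intron of the noncoding transcript Gm15884. The identifiers of Mir200b and Mir200c carry version 2 in the count tables and version 3 in the annotation used for positions, so the counted intervals of these members may differ from those given.

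Gm13648 starts 4052 bp upstream of the Mir200b hairpin. The 300 bases around its start (250 before to 50 after, GRCm38.p6, chr4:156059753-156060052, minus strand, RefSeq) are shown because the 3 members of this cluster lie inside Gm13648. Whether these bases bear on the levels of the members was not tested. Capitals mark the E-box CACCTG, the core of the sites that Zeb proteins are known to bind.
Gm13648 start: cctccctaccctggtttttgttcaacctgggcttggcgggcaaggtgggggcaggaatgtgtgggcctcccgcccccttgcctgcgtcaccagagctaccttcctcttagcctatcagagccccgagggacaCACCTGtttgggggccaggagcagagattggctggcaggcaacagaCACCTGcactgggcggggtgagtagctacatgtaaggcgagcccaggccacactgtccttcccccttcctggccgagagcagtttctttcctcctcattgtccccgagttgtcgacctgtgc
Searched on both strands, as CACCTG and its reverse complement CAGGTG, the window held 2 matches, which began 118 and 72 bases before the start. At least 1 match was present in 20.2% of the 32851 windows of the same length in the RefSeq table, and at least 2 in 2.88%. A match is a description of the letters and not a measured binding site. No window at the start of Gm15884 was analysed here.

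The family as a whole was a small part of the forebrain libraries. Counts on the strand of the gene totalled 2427066 in pup 3 and 2742746 in pup 1, and levels are given as counts per 1000000 of these totals (CPM). The 5 members summed to 22630 counts in pup 3, or 0.932% of the total (95% exact Clopper-Pearson interval 0.920 to 0.945%), and to 10082 counts in pup 1, or 0.368% (0.360 to 0.375%). The mean was 0.650% ± 0.399 (SD, n = 2). These intervals cover counting error only. They treat each read as independent, although copies made by PCR count as separate reads, so they can be too narrow. For the tissue, the neuronal Mir137 stood at 25786 ± 3504 CPM and the endothelial Mir126a at 33045 ± 3575 CPM. The neuronal Mir124a-1 to Mir124a-3 stood at 0.959 to 7.06 CPM in the mean. They are copies with the same mature sequence, and reads with more than 1 mapping position were left out. So their counts do not give the level of that mature sequence. In whole tissue, fewer cells that express a microRNA and less of it per cell cannot be told apart.

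Mir429 led the family. It had 14130 counts (5822 CPM) in pup 3 and 6475 counts (2361 CPM) in pup 1, a mean of 4091 ± 2447 CPM and rank 44 of all rows. Mir200b had 4564 counts (1880 CPM) in pup 3 and 1803 counts (657 CPM) in pup 1, at rank 93. Mir200c had 2360 counts (972 CPM) in pup 3 and 1098 counts (400.3 CPM) in pup 1, at rank 107. So the leading member of the chromosome 6 cluster stood below Mir429 and Mir200b of the chromosome 4 cluster, in either library.

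Mir200a had 1134 counts (467 CPM) in pup 3 and 481 counts (175 CPM) in pup 1, at rank 150. Mir141, the lowest, had 442 counts (182 CPM) in pup 3 and 225 counts (82.0 CPM) in pup 1, at rank 191. Each member was thus higher in pup 3, and the order Mir429, Mir200b, Mir200c, Mir200a, Mir141 was the same in both libraries. On the opposite strand, a single read was counted over all members, at Mir141 in pup 1.

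**Figure D1:**
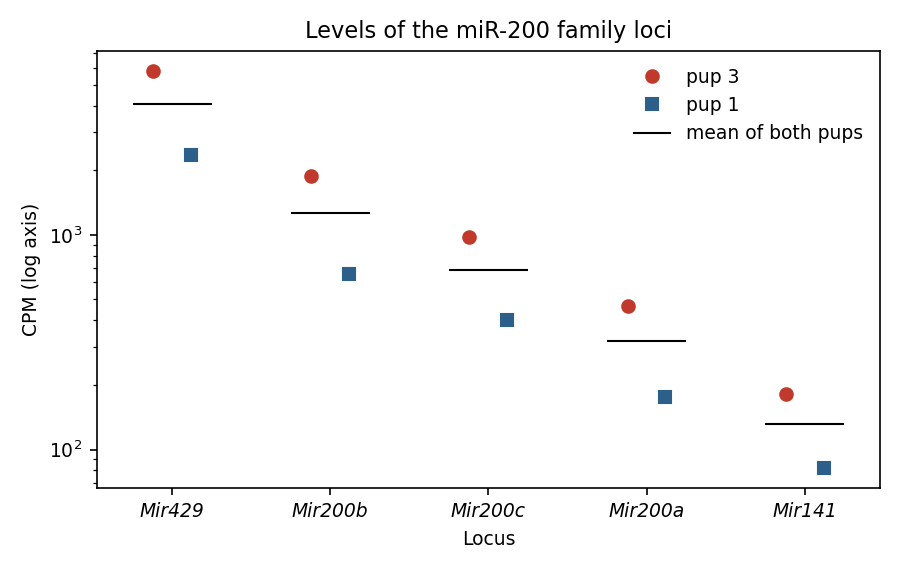
Levels of the 5 miR-200 family loci in CPM on a log axis, with 1 point per library (circles, pup 3, and squares, pup 1) and a line at the mean of both. Every locus is higher in pup 3, and the order of the loci, with Mir429 at the top and Mir141 at the bottom, is the same in both pups.

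Neighbours in this order differed in each library. Mir429 was 3.10 times Mir200b in pup 3 and 3.59 times in pup 1. Averaged over the pups, Mir200b was 1.79 ± 0.206 times Mir200c, Mir200c 2.18 ± 0.143 times Mir200a and Mir200a 2.35 ± 0.303 times Mir141 (SD, n = 2). Of 8 exact binomial tests of neighbours, 4 in each library, all passed, with a largest adjusted p of 2.86e-22 (two-sided, Benjamini-Hochberg). The order tested was taken from these same counts, so the tests are no independent support for it. Taken over both pups, only the values of Mir429 and Mir200b did not overlap. For the other 3 neighbouring pairs the higher member in pup 1 lay below the lower member in pup 3, so these members are ordered within a library and not across pups. Ligation and amplification favour some sequences, so the ratio of different loci includes the yield of each in the library.

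The cluster on chromosome 4 held most of the family. Mir200b, Mir200a and Mir429 together had 8170 CPM in pup 3 and 3194 CPM in pup 1, or 87.6% and 86.9% of the family. Mir200c and Mir141 together had 1154 CPM in pup 3 and 482 CPM in pup 1, or 12.4% and 13.1%. The counts of the chromosome 4 cluster were 7.08 times those of the chromosome 6 cluster in pup 3 and 6.62 times in pup 1, a mean of 6.85 ± 0.322. Much of this came from Mir429, without which the mean ratio was 1.88.

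Levels did not follow the order of the hairpins along the strand. In the cluster on chromosome 4 the last hairpin, Mir429, was the highest, and the middle one, Mir200a, 695 bp after Mir200b and 908 bp before Mir429, was the lowest. Mir429 was 13.0 ± 0.708 times Mir200a in the mean of both pups. In the cluster on chromosome 6 the first hairpin, Mir200c, was 5.11 ± 0.325 times Mir141, which lies 336 bp after it. In each cluster the member with the seed AACACUG was the lowest.

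**Figure D2:**
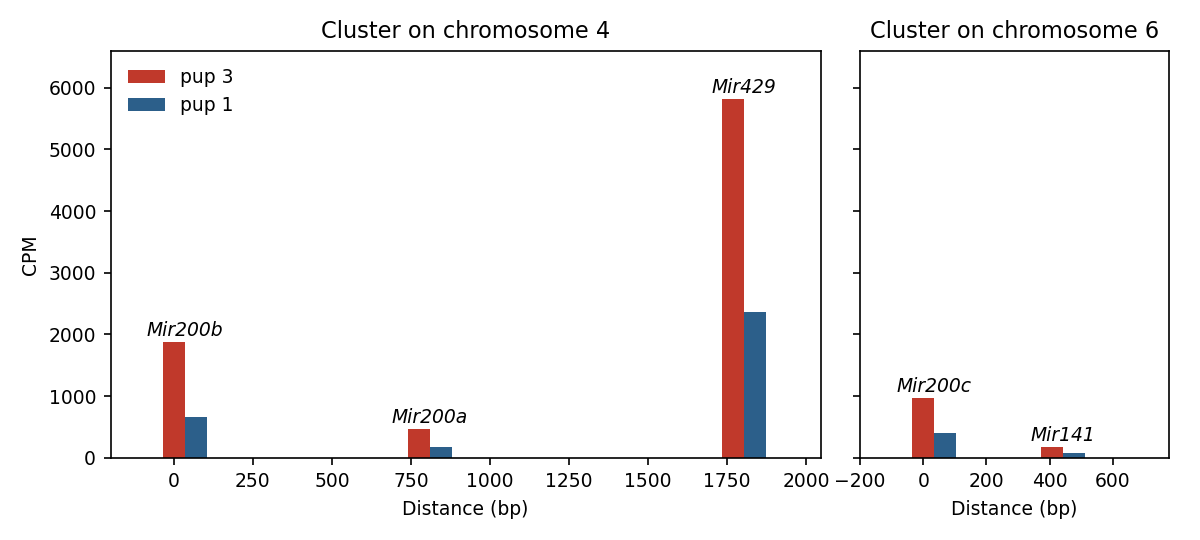
Levels in CPM along the transcribed strand of each cluster, with distance in bp from the 5′ end of the first hairpin and 1 bar per library (red, pup 3, left, and blue, pup 1, right), each drawn at its hairpin and not to its length. Mir429, the last hairpin of its cluster, is the highest bar in both pups, and Mir200a and Mir141 are the lowest of their clusters.

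The seed AAUACUG was by far the more abundant in the counts. Its 3 loci, Mir429, Mir200b and Mir200c, summed to 8675 CPM in pup 3 and 3418 CPM in pup 1, or 93.0% of the family in each. Mir200a and Mir141, with the seed AACACUG, summed to 649 CPM in pup 3 and 257 CPM in pup 1, or 6.96% and 7.00%. The ratio of the seeds was 13.4 in pup 3 and 13.3 in pup 1, with a mean of 13.3 ± 0.0556 (SD, n = 2). Without Mir429 the mean ratio was 4.25. Tables per locus do not tell the arms of a hairpin apart, so a count of a seed here is the count of the loci whose 3p arm carries it. The 5p arms carry other seeds, and only those of Mir200b and Mir200a shared one with each other.

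The ratio of the summed counts of the seeds differed between the clusters. On chromosome 4 the seed AAUACUG sums Mir429 and Mir200b, while on chromosome 6 it is Mir200c alone. The ratios thus hold unequal numbers of loci. In pup 3 it was 16.5 on chromosome 4 and 5.34 on chromosome 6, a 3.09-fold difference (95% exact interval 2.74 to 3.48, adjusted Fisher's exact p = 2.11e-67). In pup 1 it was 17.2 on chromosome 4 and 4.88 on chromosome 6, a 3.53-fold difference (2.96 to 4.19, adjusted Fisher's exact p = 2.47e-41). The direction turned when Mir429 was left out and Mir200b alone was set over Mir200a. That ratio was 4.02 in pup 3 and 3.75 in pup 1, or 0.754 and 0.768 times that of Mir200c over Mir141 (adjusted Fisher's exact p = 4.78e-06 and 0.00307, two-sided, over these 4 tests). These tests were chosen after the values were seen.

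The family was more than 2-fold higher in pup 3. Summed over its members, the share in pup 3 was 2.54 times that in pup 1, with 2.56 for the chromosome 4 cluster and 2.39 for the chromosome 6 cluster. On the log2 scale (CPM + 1, pup 3 over pup 1) the ratios were 1.51 for Mir200b, 1.41 for Mir200a, 1.30 for Mir429, 1.28 for Mir200c and 1.14 for Mir141. By Fisher's exact test of each locus against the rest of its library (two-sided, Benjamini-Hochberg adjusted over 400 loci), all 5 members were called higher in pup 3, with a largest adjusted p of 5.92e-23, at Mir141. Of all 400 tested loci, 10.2% were called higher. A log2 ratio of at least 1 was reached by all 5 members and by 3.25% of the tested loci. Each side is a single pup, so the difference has no replicate check.

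The median log2 ratio of the tested loci was −0.31, and the members lay 1.46 to 1.83 above it. With DESeq2 size factors, which move that median by 0.30, their ratios were 1.45 to 1.83, and all 5 were called higher by an exact binomial test, as were 24.5% of all loci. With TMM library sizes all 5 were called higher too, against 20.5% of all loci. Of the 400 tested loci, 12 had a ratio at or above that of Mir141, the lowest member, and of the 275 loci with at least 100 summed counts 9 did.

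**Figure D3:**
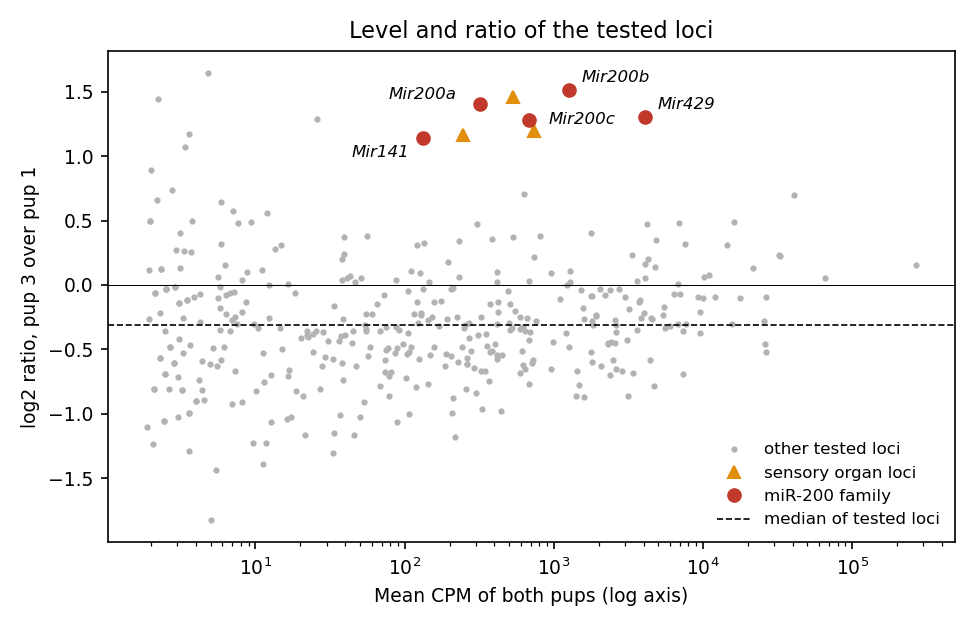
The log2 ratio of pup 3 over pup 1 against the mean level in CPM (log axis) for the 400 tested loci, with family members as red circles, the 3 sensory organ loci as orange triangles, the others as grey points and a dashed line at the median of all, −0.31. The family and the sensory organ loci lie at ratios of 1.14 to 1.51, and 12 of the 400 loci lie at or above the lowest member.

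While the family as a whole differed 2.54-fold between the libraries, its make-up differed far less. Mir429 was 62.4% of the family in pup 3 (95% exact interval 61.8 to 63.1%) and 64.2% in pup 1 (63.3 to 65.2%). Mir200b was 20.2% (19.6 to 20.7%) in pup 3 and 17.9% (17.1 to 18.6%) in pup 1. Mir200c, Mir200a and Mir141 were 10.4%, 5.01% and 1.95% in pup 3, and 10.9%, 4.77% and 2.23% in pup 1. Only the intervals of Mir429 and of Mir200b did not overlap between the pups.

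Ratios between members do not depend on how the libraries are scaled. The cluster ratio in pup 3 was 1.07 times that in pup 1 (95% exact interval 0.996 to 1.15), with an adjusted Fisher's exact p of 0.184 over 14 tests of ratios, of which the test of Mir200c over Mir141 enters both as a seed ratio and as a pair of members. Without Mir429 the same change was 0.24 on the log2 scale and passed, with an adjusted Fisher's exact p of 0.000882. The seed ratio in pup 3 was 1.01 times that in pup 1 (0.916 to 1.10, adjusted Fisher's exact p = 0.906). Within the cluster on chromosome 4 it was 0.958 times (0.856 to 1.07) and within that on chromosome 6 1.09 times (0.913 to 1.31), and neither passed. These intervals bound a change of either seed ratio but do not show that there was none.

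Of the 10 pairs of members, 3 changed in ratio between the libraries, and Mir200b was in each. Mir429 over Mir200b was 3.10 in pup 3 and 3.59 in pup 1, a 0.862-fold change (adjusted Fisher's exact p = 3.45e-05). Mir200b over Mir200c was 1.93 in pup 3 and 1.64 in pup 1 (1.18-fold, adjusted Fisher's exact p = 0.00277). Mir200b over Mir141 was 10.3 in pup 3 and 8.01 in pup 1 (1.29-fold, adjusted Fisher's exact p = 0.0187). The other pairs ran from 0.912-fold to 1.20-fold and did not pass. The ratio of Mir429 to Mir200c, which lie on different chromosomes and share a seed, was 5.99 in pup 3 and 5.90 in pup 1. The log2 ratios of the 5 members spanned 0.37, and the middle 50% of all tested loci spanned 0.56. The tested loci include some with as few as 10 summed counts, where counting error is large, so these spans are not like measures.

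**Figure D4:**
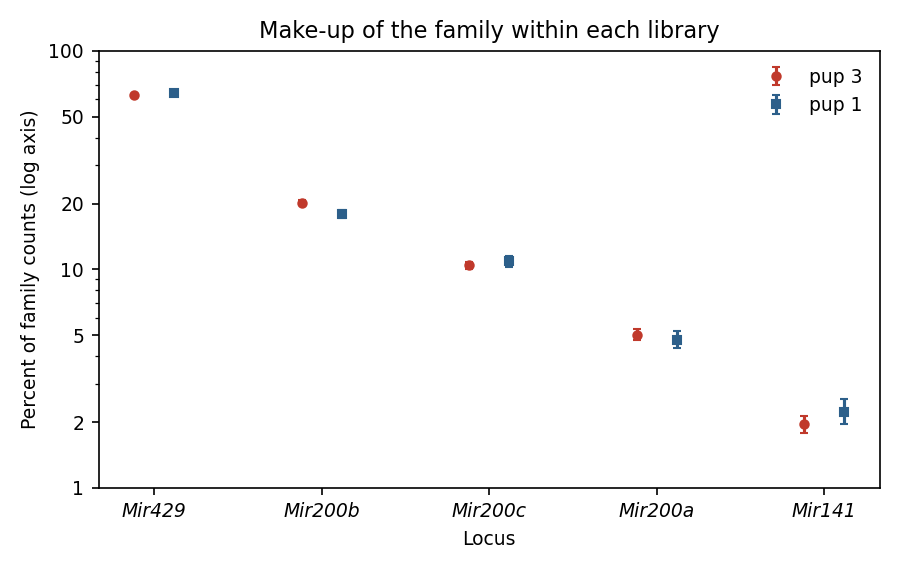
Percent of the family's counts at each member, on a log axis, in pup 3 (circles) and pup 1 (squares), with 95% exact Clopper-Pearson intervals. Mir200b was 20.2% of the family in pup 3 and 17.9% in pup 1, and Mir429 was 62.4% and 64.2%. The intervals of Mir200b and of Mir429 do not overlap between the pups, while those of Mir200c, Mir200a and Mir141 do.

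Among the loci nearest to the family in their ratio were the 3 of the sensory organ cluster, Mir182, Mir96 and Mir183, which mark hair cells, photoreceptors and olfactory cells. Apart from the members, the 5 loci with at least 100 summed counts whose log2 ratio lay nearest to the members' median, over these 2 libraries, were Mir208b, Mir182, Mir96, Mir183 and Mir28a. Their ratios were 1.29, 1.20, 1.17, 1.46 and 0.71. Mir208b, known from the slow muscle myosin gene Myh7, rested on 90 counts in pup 3 and 40 in pup 1, and Mir28a lay 0.60 from the median, farther than the other 4, which were within 0.16. The 3 sensory organ loci summed to 2145 CPM in pup 3 and 881 CPM in pup 1, a 2.44-fold difference. The family's change was 1.04 times theirs (95% exact interval 0.986 to 1.10, adjusted Fisher's exact p = 0.145 over 9 marker lists). These loci are also among those nearest to the family in this same ratio, and the lists were chosen with earlier results known. So nothing is concluded from this test.

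The other epithelial loci changed less than the family between the libraries. Mir203, of skin and oral epithelium, had 1225 CPM in pup 3 and 1225 CPM in pup 1, and Mir205, of basal epithelium and also a repressor of Zeb1 and Zeb2, had 51 counts in pup 3 and 76 in pup 1. With library totals 0 of these 2 loci passed in either direction, and with size factors Mir203 was called higher, at 0.31. The family's change was 2.55 times that of their sum (2.41 to 2.69, adjusted Fisher's exact p = 4.05e-250).

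The sums of the remaining lists also changed less than the family or in the other direction. Of all 400 tested loci, 46.2% were called lower in pup 3 by library totals and 20.8% with size factors. On the same scales 10.2% and 24.5% were called higher. Nothing particular to a list is read from the counts of lower or higher loci in these short lists. The 4 pituitary and neuroendocrine loci summed to 3189 CPM in pup 3 and 4621 CPM in pup 1, with 4 of 4 lower by library totals and 1 of 4, Mir7b, with size factors. Among them Mir375, of endocrine cells, had 298 CPM in pup 3 and 354 CPM in pup 1. The 5 multiciliated loci of ependyma and choroid plexus summed to 4927 CPM in pup 3 and 8197 CPM in pup 1, with 3 of 5 lower on either scale (Mir449a, Mir34c and Mir34b). Mir204 and Mir211, of choroid plexus and pigment epithelium, summed to 2280 CPM in pup 3 and 2938 CPM in pup 1, with 1 of 2 lower by totals and 0 with size factors.

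The 5 gut and liver loci summed to 231 CPM in pup 3 and 263 CPM in pup 1, with 1 of 3 tested loci higher on either scale (Mir122) and 1 lower by totals only (Mir194-2). The 3 red blood cell loci summed to 71.3 CPM in pup 3 and 88.2 CPM in pup 1, with 1 of 3 lower by totals and 0 with size factors. With size factors more loci were called higher and fewer lower in the most abundant lists, as over all tested loci. The 3 blood vessel loci summed to 39382 CPM in pup 3 and 34960 CPM in pup 1, with 1 called higher and 2 called lower by totals, while size factors gave 2 higher and 0 lower. The 6 neuronal loci summed to 38966 CPM in pup 3 and 42895 CPM in pup 1, with 2 of 4 tested loci higher and 1 lower by totals, while size factors gave 3 higher and 0 lower. The family's change was 2.25 to 4.22 times that of each of these lists, from pituitary to neuron, and each difference passed Fisher's exact test, which does not depend on the scaling. The tests against lists were chosen after the values were seen. No locus of any list was at 0 in both pups. Of the 9 lists, only that of the sensory organ had every tested locus called higher in pup 3, on either scale. Its 3 loci belong to 1 cluster, so these calls are not independent of each other. They are also among the loci nearest to the family in this same ratio, so nothing is concluded from these calls. Whether the cells that express this cluster account for the family's difference was not tested.

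**Figure D5:**
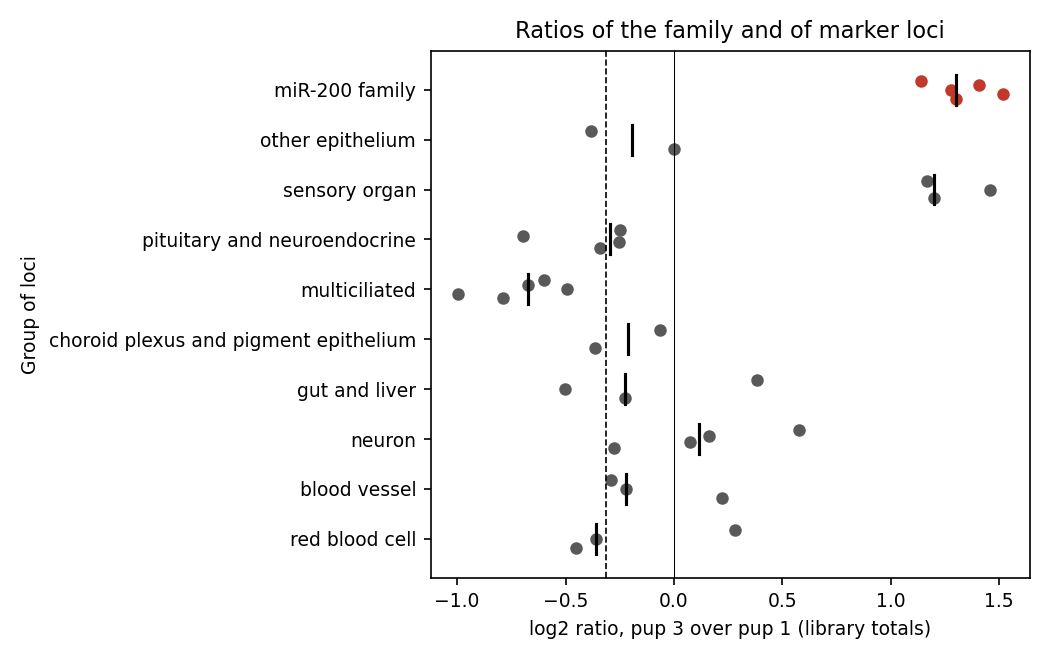
The log2 ratio of pup 3 over pup 1 by library totals for each tested locus of the family and of the 9 marker lists, with a bar at each median, a solid line at 0 and the dashed line at the median of all tested loci. The 5 family members and the 3 sensory organ loci lie at 1.14 or above, and all other tested marker loci at 0.58 or below.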

How the data were processed

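Per library, the authors deposited unnormalized read counts for miRNA genes, on assembly mm10 with annotation M4, per the text deposited with the tables. The aligner and the counter were not given in the sources used here. The tables have 3 columns of counts, which their values show to be both strands, the gene strand and the opposite strand. The gene strand was used. The first 4 rows name no gene, held 58.7% of the reads of pup 3 and 58.8% of those of pup 1, and were left out. Names and positions came from GENCODE M21 (GRCm38, the same assembly), which matched 1894 of 1973 rows, and sequences from RefSeq.

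Both pups form 1 group. Nothing in the labels besides the separate pups speaks to their independence, and both carry 1 donor entry. A quasi-likelihood test in edgeR needs a contrast between groups, which a single group lacks, so loci with at least 10 summed counts were compared by Fisher's exact test with Benjamini-Hochberg adjustment at 0.05, which does not take in variation between animals and so makes p-values too small for a comparison of animals. TMM library sizes (edgeR 4.0.16) and size factors (DESeq2 1.42.0), other filters and pseudocounts and both strands were alternatives. The test was checked on simulated counts drawn with counting error only, so that check does not bear on variation between animals. Members and lists were chosen with earlier results of these data known. Named loci were the members, the marker lists with values for loci of at least 50 CPM, loci of at least 100 summed counts with ratios at or above the lowest member, and the 5 nearest to the members' median. Mir205, Mir211 and the Mir124a loci fall outside this rule and were named after their values were seen. Copies with the same mature sequence (the Mir124a loci, the Mir128 loci, and Mir7-1 with Mir7-2) lose reads that map to more than 1 position, so their levels are uncertain. Python 3.11.15, scipy 1.17.1 and R 4.3.3 were used.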

Additional observations from a re-analysis of the deposited data

How the results depend on the processing

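Mir429 decided several values. Without it the mean share of the family was 0.241%, the ratio of the chromosome 4 to the chromosome 6 cluster 1.88, and the ratio of the seeds 4.25. The change of the cluster ratio between the libraries then passed, at 0.24 on the log2 scale. The seed ratio of the chromosome 4 over that of the chromosome 6 cluster reversed, to −0.41 in pup 3 and −0.38 in pup 1 on the log2 scale. Apart from the seed ratio, these settings were added after the data were seen. Over all tested loci, 82 were higher in pup 3 with TMM library sizes and 98 with DESeq2 size factors, against 41 with library totals, while the 5 members were higher under each. All 25 alternative ratios of single members kept direction and call, from 1.10 to 1.83. With 1 library a side, leaving out a pup ends every comparison between the libraries. At this depth the lowest member rested on 442 counts in pup 3 and 225 in pup 1, which leaves the widest intervals to ratios with Mir141.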
